A study of Mus musculus with 6 samples.

Results

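The 40 genes described here encode the machinery of mitosis and cytokinesis: mitotic kinases and cyclins, kinetochore and spindle proteins, condensin subunits and the proteins of the cleavage furrow. They were chosen by symbol from a table of 38124 mouse genes, and all 40 were found in it. RNA came from wild-type C57BL bone-marrow-derived macrophages, which are grown in culture from marrow precursors. In 3 libraries the macrophages had been exposed for 24 hr to thymocytes killed with dexamethasone (ratio 1:40, apoptotic cells removed before harvest). In 3 further libraries they were untreated. No group with dexamethasone alone or with living thymocytes is analysed here, so dexamethasone carried over and apoptotic cells cannot be told apart. The submitters call each sample a biological replicate.

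A macrophage that divides must copy its DNA, condense its chromosomes, attach them to a spindle and split in the middle. Genes of these late steps are switched on together in the second part of the cell cycle, largely by the MuvB complex with B-Myb and FoxM1, and are held down in resting cells by the DREAM complex of MuvB with E2F4 and p130. Bone-marrow-derived macrophages divide in response to CSF1 and stop as they mature.

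Mapped reads numbered 22782450 to 25933208 in the libraries of exposed macrophages and 19315132 to 23907256 in those of untreated macrophages, as recovered from the deposited values. Markers of macrophages were present in every library, with the 10 genes of that list summing to 20429 to 22813 RPKM in exposed and 15978 to 16726 RPKM in untreated macrophages. Lyz2 made up most of that sum, and the list was split. In the main fit described below 7 genes fell, among them Csf1r (ratio of exposed to untreated means 0.671) and Fcgr1 (0.141). Lyz2 (1.45) and Mertk (4.33) rose. Over all tested genes 46% were lower and 18.8% higher. With no filter 5 of the 10 were lower and 1 higher, where 27.5% of all genes were lower. With median-of-ratios scaling 4 were lower and 3 higher, against 27.9% lower and 31.9% higher over all tested genes. RPKM are reads scaled by gene length and by the number of mapped reads. Of 18 thymocyte and T cell genes, 17 stayed under 1 RPKM in all libraries, and Cd3e, Cd8b1, Rag2, Themis and Ptcra were at 0 throughout. The exception was Cd4, and the 17 others summed to 0.234 to 0.375 RPKM in exposed and 0.494 to 0.835 RPKM in untreated macrophages. The 9 granulocyte and marrow precursor genes summed to 0.563 to 0.798 RPKM in exposed macrophages and to 3.90 to 4.36 RPKM in untreated macrophages. Kit and Cd34 carried this sum and were lower in exposed macrophages, both entering the test through the untreated libraries alone. The other 7 were under 1 RPKM in every library, and among these Elane and Flt3 lay higher in all exposed libraries than in any untreated one without passing in the unfiltered fit, and Ly6g was at 0 throughout. Erythroid genes summed to 1.19 to 1.76 RPKM in exposed and 0.142 to 0.289 RPKM in untreated macrophages, fibroblast genes to 1.78 to 2.10 and 2.61 to 2.98 RPKM in exposed and untreated macrophages, and B cell genes to 0.301 to 0.472 RPKM in exposed and 0.527 to 0.673 RPKM in untreated macrophages. The thymocyte and B cell sums hide genes that went the other way. With no filter 3 of the 18 thymocyte and T cell genes were lower and 1 was higher. In that fit 1 B cell gene was lower and 1 higher, where 27.5% of all genes were lower and 11.4% higher. The part of the cells of all these lists in the results below was not tested.

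Mitotic genes were lower in macrophages exposed to apoptotic thymocytes, from a level that was already low. The mean of the 40 genes' RPKM was lower in exposed macrophages for 38 and higher for 2, and for 34 genes all exposed libraries lay below all untreated ones. That holds for 34.2% of all genes with any reads and for 49.1% of the genes tested below. The ranges of the groups did not overlap for 35 of the 40, against 69.6% of tested genes. The median gene stood at 1.37 RPKM in exposed and at 2.13 RPKM in untreated macrophages, and the median ratio of exposed to untreated means was 0.526, against 0.899 over all tested genes. Because whole cultures were sequenced, fewer dividing cells and less RNA per dividing cell cannot be told apart.

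The change was tested with limma on log2(RPKM + 1) over the 10173 genes that reached 1 RPKM in 3 libraries or more, with Benjamini-Hochberg adjustment over all of them and a threshold of 0.05. All log2 changes below are exposed minus untreated on this scale, which understates changes of genes near 1 RPKM. Of the 40 genes 35 could be tested, and 32 were lower, 1 higher and 2 did not pass. Of all tested genes 46% were lower and 18.8% higher, 64.8% in all, and the log2 change of the median tested gene was -0.13. For 6 of the 35 (Bub1, Cenpe, Spc24, Nusap1, Prc1 and Ect2) every exposed library was under 1 RPKM, so that they entered the test through the untreated libraries alone. In a fit with no filter, which holds all 40 genes, 32 were lower, 1 was higher and 7 did not pass, where 27.5% of 18737 genes were lower and 11.4% higher (39% in all). With median-of-ratios scaling, which moved the median tested gene to 0.02, 26 were lower, 1 was higher and 8 did not pass, against a background of 27.9% lower and 31.9% higher (59.8% in all). The 6 that no longer passed were Ccnb1, Aurka, Plk1, Ube2c, Kif20a and Mki67.

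**Figure D1:**
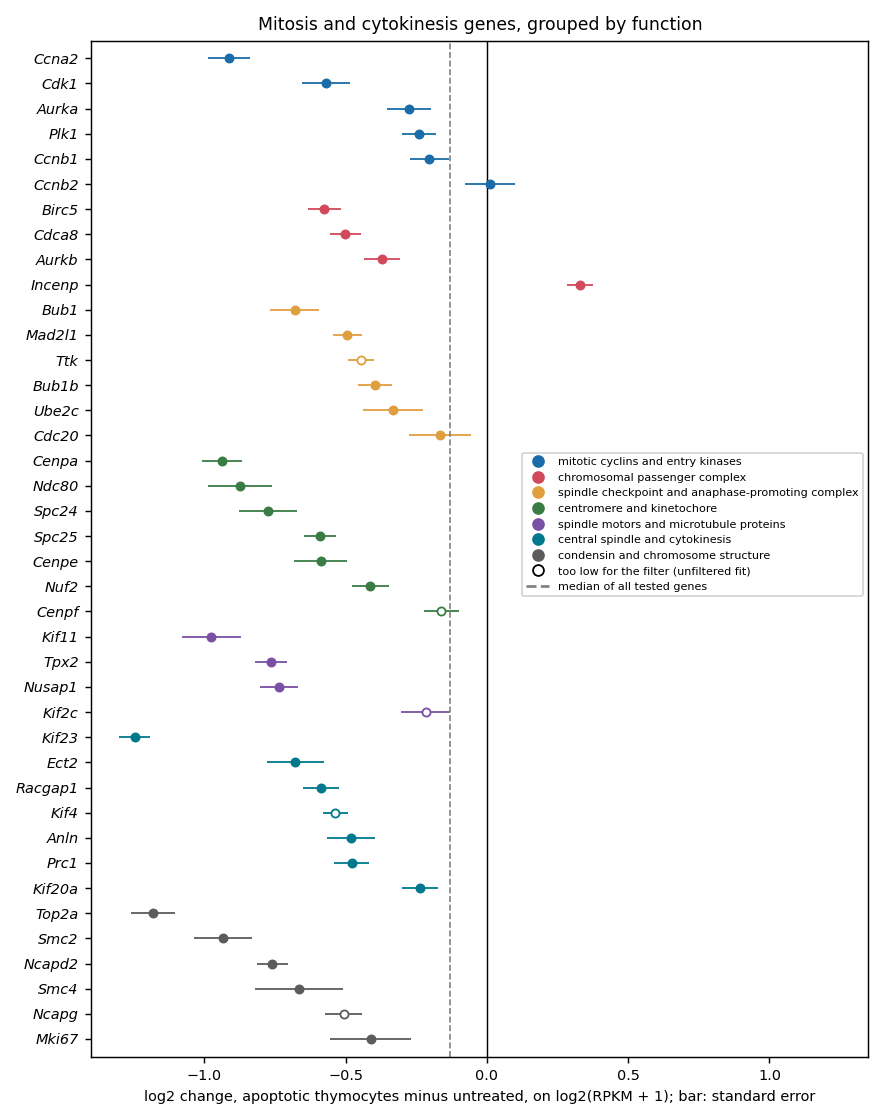
Log2 change (exposed minus untreated, on log2(RPKM + 1), bars are the standard error) of each of the 40 genes, coloured by function. Open points mark the 5 genes under the expression filter, with values of the unfiltered fit. Nearly all points lie left of the median of all tested genes (dashed, -0.13), Kif23 and Top2a farthest, while Ccnb2 sits at 0.01 and Incenp at 0.33.

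The promoters of these genes share sequence features that were not used in choosing them. RefSeq promoter windows (250 bases before to 50 after the start of the gene, GRCm38.p6) were at hand for 33 of the 40 genes. The cell cycle homology region, the element through which MuvB complexes bind, was searched as TTTGAA or TTCGAA, and the box bound by the factor NF-Y as CCAAT, all on both strands (TTCGAA reads the same on both, and matches of different motifs can share end bases). Some genes, among them Ect2 and Prc1, had windows at different starts, and a gene was counted if any of its windows held the motif. One of the homology region forms was present in 27 of the 33 genes (81.8%), against 21.7% of 27025 genes with a window. It began within 50 bases of the start in 24 (72.7%), against 6.12% of all genes. CCAAT was present in 26 (78.8%), against 41.1% of all genes, and both kinds in 24 (72.7%), against 8.61%. These shares over all genes were not limited to genes tested or expressed in these macrophages. The windows of 4 genes are given 5′ to 3′ on the strand of the gene, with every match in capitals. Kif23 is shown for the largest fall among the tested genes, Top2a for a large fall with many matches, Ccnb2 because it has both motifs and did not pass, and Birc5 because it fell and has neither in this window.
Kif23 (chr9:61946750-61947049, minus strand): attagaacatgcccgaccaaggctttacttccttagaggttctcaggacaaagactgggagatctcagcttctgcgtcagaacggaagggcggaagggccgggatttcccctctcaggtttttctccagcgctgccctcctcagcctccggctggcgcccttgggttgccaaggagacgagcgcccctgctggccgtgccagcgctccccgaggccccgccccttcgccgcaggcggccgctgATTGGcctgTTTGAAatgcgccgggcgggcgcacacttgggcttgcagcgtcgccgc
Top2a (chr11:99024140-99024439, minus strand): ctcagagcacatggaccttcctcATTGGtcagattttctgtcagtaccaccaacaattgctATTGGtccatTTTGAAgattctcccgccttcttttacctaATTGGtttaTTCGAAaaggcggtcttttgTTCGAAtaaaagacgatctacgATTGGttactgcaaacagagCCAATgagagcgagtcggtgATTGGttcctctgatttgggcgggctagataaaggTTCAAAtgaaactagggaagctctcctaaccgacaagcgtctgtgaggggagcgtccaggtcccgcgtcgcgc
Ccnb2 (chr9:70421505-70421804, minus strand): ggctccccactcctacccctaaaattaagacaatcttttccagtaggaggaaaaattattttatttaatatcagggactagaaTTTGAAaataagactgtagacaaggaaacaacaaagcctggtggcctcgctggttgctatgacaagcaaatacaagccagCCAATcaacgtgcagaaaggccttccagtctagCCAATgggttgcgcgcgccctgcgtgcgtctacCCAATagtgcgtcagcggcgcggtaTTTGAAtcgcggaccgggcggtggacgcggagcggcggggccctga
Birc5 (chr11:117848987-117849286, plus strand): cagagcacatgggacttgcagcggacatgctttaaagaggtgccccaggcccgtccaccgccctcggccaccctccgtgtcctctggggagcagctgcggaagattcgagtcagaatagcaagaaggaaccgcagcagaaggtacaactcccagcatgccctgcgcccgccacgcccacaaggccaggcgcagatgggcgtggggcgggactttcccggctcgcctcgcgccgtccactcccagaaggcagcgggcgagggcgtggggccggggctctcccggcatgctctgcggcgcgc

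In Kif23 a CCAAT box on the opposite strand begins 7 bases before the start and TTTGAA begins 2 bases after it. Ccnb2 has TTTGAA 4 bases after the start with CCAAT boxes beginning 21, 54 and 87 bases before it. Top2a holds TTTGAA 179 bases before the start and, on the opposite strand, 23 bases before it, besides TTCGAA 120 and 140 bases before it and CCAAT boxes in either direction. Genes with and without the motif had overlapping ranges of change: the median ratio of exposed to untreated means was 0.518 (range 0.279 to 1.01) in the 27 genes with a homology region form and 0.576 (0.342 to 0.793) in the 6 without one, which are Birc5, Ccnb1, Cenpe, Mad2l1, Nuf2 and Nusap1. A match is a run of letters and not a measured binding site.

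Among the cyclins and kinases that drive entry into mitosis, 5 of 6 fell, but by unequal amounts, where 46% of all tested genes were lower. With no filter 4 of the 6 were lower (27.5% over all genes). With median-of-ratios scaling 2 were lower and 4 did not pass (27.9% lower over all). Ccna2 encodes cyclin A2, which acts from DNA replication to early mitosis. It stood at 1.58, 1.56 and 1.32 RPKM in exposed macrophages, against 3.27, 3.86 and 3.91 RPKM in untreated macrophages. The groups lay far apart, and Ccna2 fell by 0.91 on the log2 scale (SE 0.0742, adjusted p = 5.78e-06). Ccna2 overlaps Exosc9 on the opposite strand, whose level is given with the other overlaps below. Cdk1, the kinase that binds cyclins A and B and starts mitosis, was the most abundant of the 6. It read 3.32, 4.28 and 3.71 RPKM in exposed macrophages and 5.92, 6.71 and 5.59 RPKM in untreated macrophages, without overlap (log2 change -0.57, SE 0.0856, adjusted p = 0.000359).

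Both B-type cyclins, the partners of Cdk1 within mitosis, changed least. Ccnb1 read 1.26, 1.42 and 1.48 RPKM in exposed and 1.87, 1.82 and 1.56 RPKM in untreated macrophages (log2 change -0.20, adjusted p = 0.0257), a call that was lost with scaling and when single libraries were left out. Ccnb2 read 2.65, 2.22 and 1.96 RPKM in exposed and 2.12, 2.09 and 2.53 RPKM in untreated macrophages. The Ccnb2 groups overlapped, and the change was 0.01 with a 95% interval of -0.19 to 0.21 (adjusted p = 0.923). The kinases of spindle assembly lay in between, and their calls were lost with median-of-ratios and with upper-quartile scaling. Aurka, which acts at spindle poles, averaged 1.38 ± 0.173 RPKM in exposed and 1.88 ± 0.213 RPKM in untreated macrophages (SD, n = 3 each; log2 change -0.27, adjusted p = 0.0131). Plk1, which acts at centrosomes and kinetochores, averaged 1.54 ± 0.111 RPKM in exposed and 2.0 ± 0.0997 RPKM in untreated macrophages (log2 change -0.24, adjusted p = 0.00668).

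**Figure D2:**
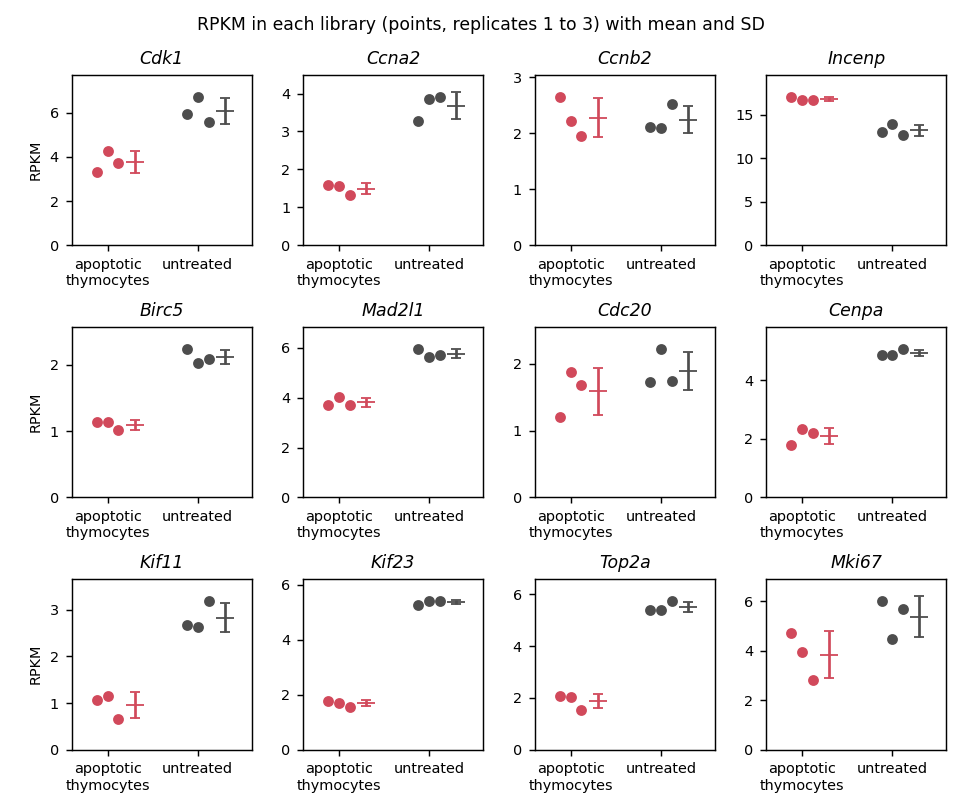
RPKM of 12 genes in each library, exposed macrophages at left and untreated at right in every panel, with mean and SD beside the points. Kif23, Top2a, Cenpa and Ccna2 show groups that lie far apart, Ccnb2, Cdc20 and Mki67 show overlapping groups, and Incenp is higher in exposed macrophages.

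The chromosomal passenger complex, which corrects wrong attachments of chromosomes to the spindle and later marks the division plane, split. Its kinase, its survivin and its borealin subunit fell and its scaffold rose. Incenp, the scaffold, had by far the highest level of the 40 genes. It stood at 17.1, 16.8 and 16.7 RPKM in exposed macrophages, against 13, 13.9 and 12.7 RPKM in untreated macrophages. Every exposed library lay above every untreated one, and Incenp rose 1.28-fold (log2 change 0.33, SE 0.0471, adjusted p = 0.00026), with an adjusted p of 1.4e-05 to 0.00226 over the alternatives run. Incenp (ENSMUSG00000024660, chromosome 19, 9872297 to 9899533, minus strand, mm10) was covered by 1229 to 1425 reads in exposed and 810 to 1069 reads in untreated libraries. The other subunits stood near 2 RPKM in untreated macrophages. Birc5 (survivin) read 1.13, 1.14 and 1.01 RPKM in exposed and 2.24, 2.03 and 2.09 RPKM in untreated macrophages (log2 change -0.58, SE 0.0588, adjusted p = 2.75e-05). Cdca8 (borealin) fell by 0.50 on the log2 scale (adjusted p = 4e-05) and the kinase gene Aurkb by 0.37 (adjusted p = 0.000788).

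In the spindle checkpoint, which delays anaphase until all chromosomes are attached, the kinases and Mad2l1 fell. Mad2l1, which encodes the inhibitor MAD2, stood at 3.69, 4.02 and 3.70 RPKM in exposed and 5.95, 5.62 and 5.73 RPKM in untreated macrophages (log2 change -0.49, SE 0.0528, adjusted p = 3.77e-05). The checkpoint kinase gene Bub1 read 0.735, 0.686 and 0.439 RPKM in exposed and 1.63, 1.40 and 1.74 RPKM in untreated macrophages (log2 change -0.68, SE 0.0868, adjusted p = 0.000124). Both genes had groups clear of each other. Bub1b, which encodes the checkpoint protein BUBR1, fell by 0.40 on the log2 scale (adjusted p = 0.000429). Ttk, the kinase MPS1 at the top of the checkpoint, was too low for the filter at 0.332 ± 0.0536 RPKM in exposed and 0.814 ± 0.0686 RPKM in untreated macrophages (SD, n = 3 each), and passed as lower in the unfiltered fit (adjusted p = 0.000453).

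The checkpoint's target, the anaphase-promoting complex, is represented by its activator Cdc20 and its ubiquitin-conjugating enzyme Ube2c, and these showed smaller and less certain changes. Cdc20 read 1.2, 1.88 and 1.68 RPKM in exposed and 1.72, 2.22 and 1.74 RPKM in untreated macrophages. These groups overlapped, and Cdc20 did not pass (log2 change -0.17, 95% interval -0.41 to 0.08, adjusted p = 0.205). Ube2c read 1.11, 1.72 and 1.21 RPKM in exposed and 1.71, 2.25 and 1.87 RPKM in untreated macrophages. It too overlapped, and passed narrowly as lower (log2 change -0.33, adjusted p = 0.0216), with an adjusted p of 0.0032 to 0.0893 over the alternatives run.

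All 6 tested centromere and kinetochore genes fell, where 46% of all tested genes were lower. Of these, Cenpe and Spc24 entered the test through the untreated libraries alone. Cenpa encodes the histone H3 variant that marks the centromere. It stood at 1.80, 2.33 and 2.19 RPKM in exposed and 4.86, 4.88 and 5.07 RPKM in untreated macrophages, with no overlap (log2 change -0.94, SE 0.0706, adjusted p = 3.31e-06). Ndc80, Nuf2, Spc24 and Spc25 encode the 4 subunits of the NDC80 complex, which grips microtubules. Ndc80 read 0.964, 1.26 and 0.675 RPKM in exposed and 2.21, 2.62 and 2.91 RPKM in untreated macrophages (log2 change -0.87, SE 0.113, adjusted p = 0.000138). Spc24 read 0.372, 0.748 and 0.441 RPKM in exposed and 1.34, 1.74 and 1.70 RPKM in untreated macrophages, on only 13 to 23 reads per exposed library (log2 change -0.78, adjusted p = 0.000153). Spc25 averaged 1.2 ± 0.0411 RPKM in exposed and 2.31 ± 0.142 RPKM in untreated macrophages (log2 change -0.59, adjusted p = 2.05e-05). Nuf2 changed least of the 4, with 1.41, 1.47 and 1.16 RPKM in exposed and 2.11, 2.12 and 2.13 RPKM in untreated macrophages (log2 change -0.41, adjusted p = 0.000488). Although their products act as 1 complex, the ratio of exposed to untreated means ran from 0.326 for Spc24 to 0.636 for Nuf2; the differences between the 4 were not tested.

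The outer kinetochore motor gene Cenpe fell by 0.59 on the log2 scale (adjusted p = 0.000528), at 0.572 ± 0.174 RPKM in exposed and 1.36 ± 0.181 RPKM in untreated macrophages (SD, n = 3 each). Cenpf, a large kinetochore protein gene, was the lowest of the 40 in untreated macrophages. It read 0.289, 0.205 and 0.198 RPKM in exposed and 0.360, 0.280 and 0.496 RPKM in untreated macrophages, with overlap, and did not pass in the unfiltered fit (adjusted p = 0.0872).

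All 3 tested spindle genes fell, where 46% of all tested genes were lower, and Nusap1 entered the test through the untreated libraries alone. Kif11 encodes the motor that pushes the spindle poles apart. It stood at 1.06, 1.16 and 0.652 RPKM in exposed and 2.68, 2.64 and 3.18 RPKM in untreated macrophages (log2 change -0.98, SE 0.105, adjusted p = 3.9e-05). Tpx2, which activates Aurora A and nucleates microtubules, was the most abundant of these genes and read 1.67, 1.47 and 1.46 RPKM in exposed and 3.24, 3.41 and 3.26 RPKM in untreated macrophages (log2 change -0.76, SE 0.0576, adjusted p = 3.36e-06). For both, the groups lay clearly apart. Nusap1, a protein that bundles microtubules near chromosomes, read 0.561, 0.573 and 0.460 RPKM in exposed and 1.62, 1.37 and 1.67 RPKM in untreated macrophages (log2 change -0.74, adjusted p = 1.48e-05). Kif2c, a microtubule-depolymerising kinesin gene, read 0.592, 0.302 and 0.584 RPKM in exposed and 0.676, 0.690 and 0.815 RPKM in untreated macrophages and did not pass in the unfiltered fit (adjusted p = 0.1).

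Genes of the central spindle and cytokinesis included the largest fall of the 35 tested genes. Kif23 (ENSMUSG00000032254, chromosome 9, 61917280 to 61946799, minus strand, mm10) encodes MKLP1, the motor of the centralspindlin complex that sets up the cleavage furrow. Its levels were 1.78, 1.71 and 1.56 RPKM in exposed macrophages, against 5.28, 5.40 and 5.41 RPKM in untreated macrophages. The libraries of each group were close to each other, and Kif23 was 3.19-fold lower in exposed macrophages (log2 change -1.25, SE 0.054, adjusted p = 7.58e-08), with an adjusted p of at most 8.32e-06 over the alternatives run. Racgap1, which encodes the partner of MKLP1 in centralspindlin, fell less. It read 0.980, 1.2 and 1.11 RPKM in exposed and 2.03, 2.31 and 2.11 RPKM in untreated macrophages (log2 change -0.59, SE 0.0651, adjusted p = 4.85e-05). Ect2, which centralspindlin recruits to activate the GTPase RhoA, read 0.756, 0.515 and 0.310 RPKM in exposed and 1.34, 1.51 and 1.42 RPKM in untreated macrophages (log2 change -0.68, SE 0.1, adjusted p = 0.000327).

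The other genes of this group act in bundling and constriction. Prc1, which bundles the microtubules of the central spindle, and Anln, which links the contractile ring to the membrane, both fell by 0.48 on the log2 scale (adjusted p = 0.000125 and 0.00092). Kif4, the chromokinesin that works with Prc1, was under the filter and had the lowest ratio of means of all 40 genes, 0.279. It read 0.217, 0.263 and 0.154 RPKM in exposed and 0.685, 0.797 and 0.786 RPKM in untreated macrophages, and passed as lower in the unfiltered fit (adjusted p = 0.000182). Kif20a, the kinesin that carries the passenger complex to the central spindle, changed least. It read 1.73, 1.93 and 1.67 RPKM in exposed and 2.21, 2.16 and 2.44 RPKM in untreated macrophages (log2 change -0.24, adjusted p = 0.00946), and did not pass with either scaling. Kif20a overlaps Cdc23 on the opposite strand over 2315 bases (2.19 RPKM in exposed and 2.78 RPKM in untreated macrophages), and Kif4 overlaps Pdzd11, which stood at 10.5 RPKM in both groups, over 832 bases. Of the other genes among the 40, Ccna2 overlaps Exosc9 over 864 bases (5.77 RPKM in exposed and 6.23 RPKM in untreated macrophages), Ncapg overlaps Lcorl over 3364 bases (1.33 RPKM in exposed and 2.07 RPKM in untreated macrophages) and Cdca8 overlaps 9930104L06Rik over 2264 bases (2.92 RPKM in exposed and 2.94 RPKM in untreated macrophages). Shorter overlaps join Nusap1 with Oip5 (172 bases) and Cdc20 with Elovl1 (53 bases), the second of which stood at 67.5 RPKM in exposed and 58.1 RPKM in untreated macrophages. The library kit keeps strand, but whether strand was used in counting is not given in the sources used here, so reads of such neighbours cannot be told apart.

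All chromosome structure genes but Ncapg were among the more abundant of the 40. Top2a encodes topoisomerase II alpha, which untangles sister DNA. It stood at 2.06, 2.03 and 1.55 RPKM in exposed and 5.39, 5.39 and 5.73 RPKM in untreated macrophages, a 2.93-fold lower level (log2 change -1.18, SE 0.0765, adjusted p = 1.2e-06). Smc2 and Smc4 encode the core shared by both condensins. Smc4 read 6.78, 5.87 and 3.92 RPKM in exposed and 10.4, 7.94 and 9.25 RPKM in untreated macrophages (log2 change -0.66, SE 0.156, adjusted p = 0.00494). Smc2 read 3.32, 2.92 and 2.24 RPKM in exposed and 6.51, 5.66 and 6.65 RPKM in untreated macrophages (log2 change -0.93, SE 0.104, adjusted p = 4.88e-05). The groups were clear of each other for all of these, but the exposed libraries differed among themselves more than for Kif23. Of the subunits particular to condensin I, Ncapd2 averaged 2.13 ± 0.119 RPKM in exposed and 4.29 ± 0.159 RPKM in untreated macrophages (SD, n = 3 each; log2 change -0.76, adjusted p = 2.78e-06). Ncapg, at 0.372 ± 0.11 RPKM in exposed and 0.946 ± 0.0513 RPKM in untreated macrophages, passed as lower in the unfiltered fit, the 1 fit without a filter on low values (adjusted p = 0.0012), and carries the overlap with Lcorl given above.

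Mki67, the gene of the proliferation marker Ki-67 that coats mitotic chromosomes, was a weak case. It read 4.73, 3.97 and 2.83 RPKM in exposed and 6.01, 4.46 and 5.69 RPKM in untreated macrophages. The highest exposed library exceeded the lowest untreated one, and Mki67 passed narrowly (log2 change -0.41, SE 0.144, adjusted p = 0.0318). It did not pass without exposed replicate 2 or 3 or untreated replicate 1 or 3, with no filter or with either scaling, where its adjusted p reached 0.128.

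**Figure D3:**
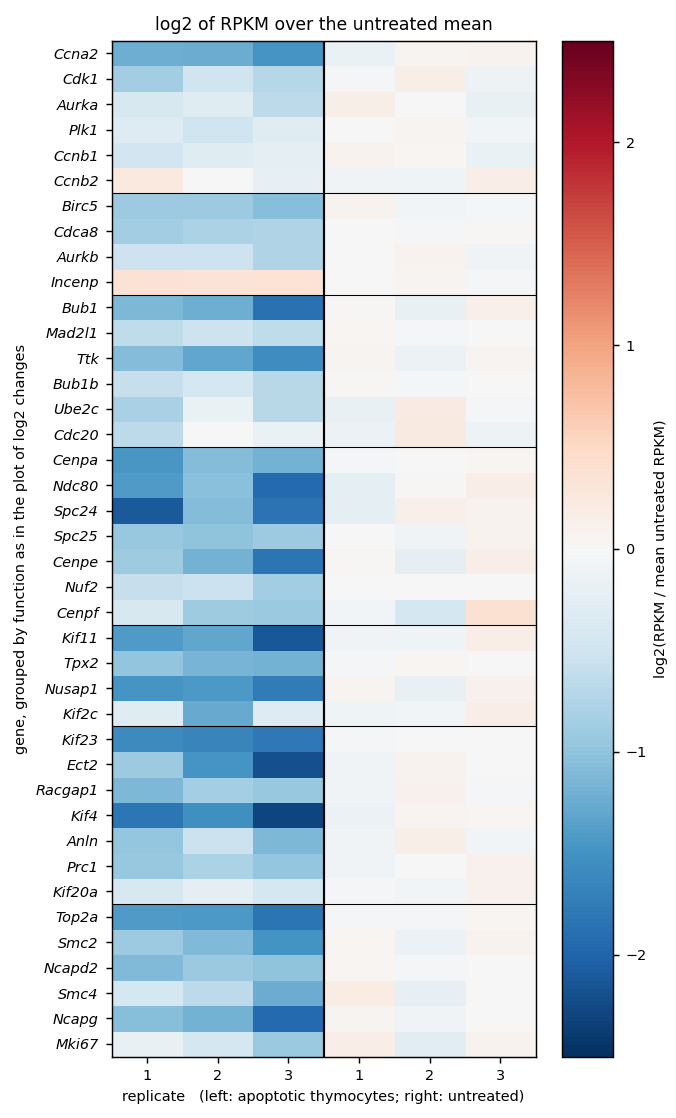
Log2 of each library's RPKM over the untreated mean for all 40 genes (rows, by function), exposed libraries at left and untreated at right. Blue marks lower and red higher values. Most exposed cells are blue, deepest in exposed replicate 3 for genes such as Kif11, Ect2 and Kif4, while Incenp is pale red in all 3 exposed libraries.

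The ratio of exposed to untreated means varied between functional groups, and the exposed libraries were not alike. By the median ratio of exposed to untreated means, cyclins and entry kinases stood at 0.752 (range 0.404 to 1.01), the passenger complex at 0.618 and the checkpoint group at 0.667. Cytokinesis genes stood at 0.51, chromosome structure genes at 0.473, kinetochore genes at 0.427 and spindle genes at 0.404 (0.338 to 0.678). These medians over 4 to 7 genes describe the order and were not tested against each other. The 40 genes' RPKM summed to 78.8, 80.1 and 69.2 in exposed libraries 1 to 3, against 122.6, 120.8 and 124.1 in untreated libraries. Without Incenp the sums were 61.7, 63.3 and 52.5 RPKM in exposed and 110, 107 and 111 RPKM in untreated libraries. Exposed replicate 3 held the lowest exposed value for 27 of the 40 genes, against 36% of all tested genes. Of the 40, 35 were lower there than in exposed replicate 2, against 48.0% of tested genes. Libraries of 1 group also differed by gene length. Across the 40 genes the Spearman correlation of gene length with the log2 ratio of exposed replicate 3 to exposed replicate 1 was -0.43, that for exposed replicate 2 to exposed replicate 1 was -0.32 and that for exposed replicate 3 to exposed replicate 2 was -0.16. Across all tested genes these were -0.31, -0.33 and -0.14. Among untreated libraries the values across the 40 genes were -0.34 (replicate 2 to 1), 0.08 (3 to 1) and 0.36 (3 to 2). Genes are not independent replicates. The part of gene length in the results was not tested. Without exposed replicate 3, 30 of the 35 tested genes were lower, with Ube2c and Mki67 the calls that were lost. In that fit 4712 genes were lower over all tested genes.

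Other mitosis genes, from a list of 59 of which 58 were in the table, were also mostly lower. Of 34 tested, 28 fell, 4 rose and 2 did not pass, against 46% lower and 18.8% higher over all tested genes. Of the 34, 11 entered the test through the untreated libraries alone. In the fit with no filter 45 of the 58 were lower, 4 higher and 9 did not pass, where 27.5% of all genes were lower, and the median ratio of means over the 58 was 0.55. Pbk, a kinase gene of mitotic cells, read 0.581, 0.907 and 0.759 RPKM in exposed and 2.54, 3.22 and 3.46 RPKM in untreated macrophages (log2 change -1.22, adjusted p = 6.09e-06). It is 1 of the genes tested through the untreated libraries alone, and its adjusted p was 0.000263 with no filter. Pkmyt1, which encodes an inhibitory kinase of Cdk1, fell by 1.01 on the log2 scale (adjusted p = 2.11e-07), and overlaps Paqr4, at 1.85 RPKM in exposed and 4.13 RPKM in untreated macrophages, on the opposite strand. The condensin II subunit gene Ncapg2 went the other way, with 37.4, 33.8 and 25.6 RPKM in exposed and 13.6, 12.2 and 13.2 RPKM in untreated macrophages (log2 change 1.23, SE 0.117, adjusted p = 1.62e-05). Pttg1, the gene of securin, which holds separase inactive until anaphase, rose to 9.71 ± 0.131 RPKM in exposed macrophages, against 7.01 ± 0.642 RPKM in untreated macrophages (SD, n = 3 each; log2 change 0.42, adjusted p = 0.000318). Like Incenp, both had levels well above most mitotic genes in this culture.

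Complexes that also work outside mitosis had median ratios nearer to 1. Of 14 tested subunits of the anaphase-promoting complex, 8 fell, 1 rose and 5 did not pass, where 46% of all tested genes were lower. With median-of-ratios scaling 1 fell, 2 rose and 11 did not pass, where 27.9% of all tested genes were lower and 31.9% higher. The exception upward was Anapc16, at 44.3 ± 2.47 RPKM in exposed and 21.3 ± 1.31 RPKM in untreated macrophages (log2 change 1.02, adjusted p = 4.87e-07), which overlaps Ascc1 on the opposite strand, and the largest fall was that of Anapc5 (log2 change -0.62, adjusted p = 3.08e-06), followed by Cdc27 (-0.34, adjusted p = 0.0106). Anapc11 did not pass (0.06, adjusted p = 0.293). Of 10 genes of cohesin, the ring that holds sister chromatids, 9 fell and 1 did not pass, against 46% lower over all tested genes. That count was 5 with median-of-ratios scaling (27.9% lower over all) and also 5 with no filter (27.5% lower over all). Pds5b (log2 change -0.63, adjusted p = 4.03e-05) and Smc3 (-0.56, adjusted p = 0.00286) fell most, and Pds5a (-0.21, adjusted p = 0.0248) and Mau2 (-0.07, adjusted p = 0.189) stood at the other end. The median ratios of means were 0.865 for the anaphase-promoting complex and 0.719 for cohesin.

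Genes of the preceding step, DNA replication, had a lower median ratio than the mitotic genes. Of 20 tested, 18 fell and 2 did not pass (Cdc45 with a log2 change of -0.16, adjusted p = 0.0811, and Gins4 with -0.07, adjusted p = 0.283), where 46% of all tested genes were lower, and the median ratio of means was 0.434 over 21 genes. Of the 20, Mcm10, Tyms, Tk1 and Ccne2 entered the test through the untreated libraries alone. With no filter 19 of the 21 were lower, where 27.5% of 18737 genes were lower. Mcm5, a subunit of the replicative helicase, stood at 3.16, 3.26 and 3.31 RPKM in exposed and 12.3, 12.8 and 12.7 RPKM in untreated macrophages (log2 change -1.68, adjusted p = 5.03e-09). Mcm6, of the same helicase, fell by 1.67 on the log2 scale (adjusted p = 1.72e-08). The difference between the replication and mitosis lists was not tested.

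**Figure D4:**
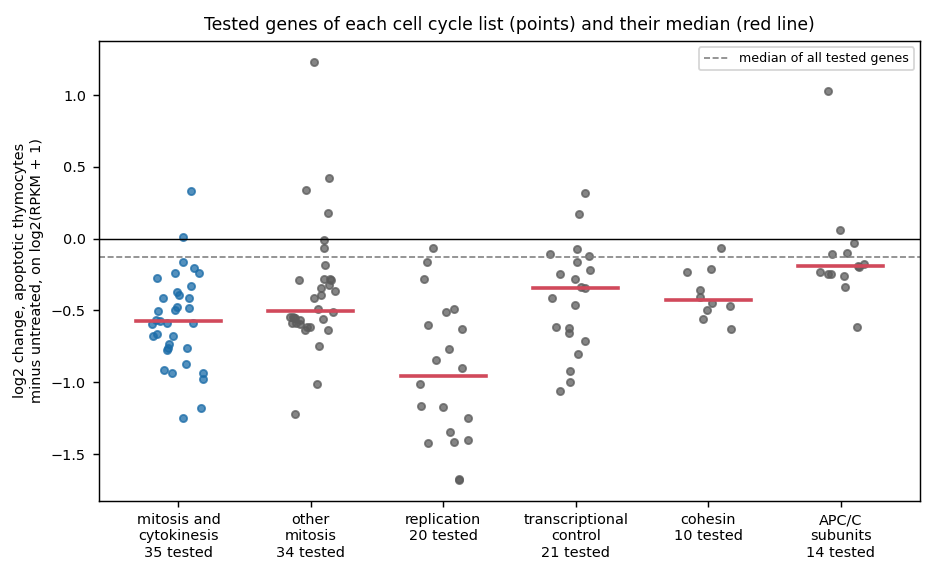
Log2 change of the tested genes of 6 cell cycle lists (points) with each list's median (red line) and the median of all tested genes (dashed). Replication genes lie lowest, and both mitosis lists lie in the middle, with Incenp, Ncapg2, Pttg1 and Zwint among their genes above 0. Subunits of the anaphase-promoting complex (APC/C) lie nearest to the dashed line.

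Of 23 genes that control cell cycle transcription, 21 were tested, and 16 fell, 2 rose and 3 did not pass; 12 fell and 2 rose with median-of-ratios scaling. Over all tested genes 46% were lower and 18.8% higher without that scaling, and 27.9% lower and 31.9% higher with it. In unscaled fits the count that rose was 1 without exposed replicate 2, without untreated replicate 1 or without untreated replicate 3. Myb and E2f7 were too low to test. The activators of mitotic genes were low. Mybl2, which encodes B-Myb, read 0.433, 0.351 and 0.358 RPKM in exposed and 1.18, 1.48 and 1.14 RPKM in untreated macrophages (log2 change -0.71, adjusted p = 2.84e-05). Foxm1 read 0.814, 0.846 and 0.656 RPKM in exposed and 1.17, 1.28 and 1.64 RPKM in untreated macrophages (log2 change -0.41, adjusted p = 0.00251). Every exposed library lay below every untreated one for both, and both entered the test through the untreated libraries alone. Lin9, a core MuvB subunit, fell by 0.93 (adjusted p = 1.46e-06) and Lin54, the subunit that contacts the homology region, by 0.24 (adjusted p = 0.00841, not passed with scaling), whereas Lin37 (adjusted p = 0.0849), Lin52 (0.437) and Rbbp4 (0.132) did not pass.

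The E2F family, which binds the promoters of replication genes and, as E2F4, the DREAM complex, split by member. E2f1, an activator, fell to 6.64 ± 0.159 RPKM in exposed macrophages, against 11.0 ± 0.443 RPKM in untreated macrophages (SD, n = 3 each; log2 change -0.66, adjusted p = 3.02e-06), and E2f2 and E2f3 each fell by 0.34. E2f8, a repressor that is itself made in cycling cells, had the most negative log2 change of this list, with 0.319, 0.323 and 0.257 RPKM in exposed and 1.75, 1.68 and 1.71 RPKM in untreated macrophages (log2 change -1.06, adjusted p = 3.36e-07). It too entered the test through the untreated libraries alone, and its adjusted p was 5.85e-06 with no filter. E2f4 rose to 24.5, 25.3 and 27.1 RPKM in exposed macrophages, against 19.9, 19.3 and 21.9 RPKM in untreated macrophages (log2 change 0.32, SE 0.0589, adjusted p = 0.00124), and E2f6, another repressor, rose by 0.17 (adjusted p = 0.0206). E2f5 fell by 0.16 (adjusted p = 0.0442), and the E2F partners Tfdp1 and Tfdp2 fell by 0.28 (adjusted p = 0.00116) and 0.62 (adjusted p = 2.01e-05); the E2f5 and Tfdp1 calls were lost with median-of-ratios scaling.

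The pocket proteins that restrain E2F factors fell too: Rbl1 (p107) by 0.81 (adjusted p = 5.43e-05), Rb1 by 0.46 (adjusted p = 0.00105, with Lpar6, at 19.3 RPKM in exposed and 47.6 RPKM in untreated macrophages, on the opposite strand within it) and Rbl2 (p130) by 0.22 on the log2 scale (adjusted p = 0.0117), the last not passing with scaling. Cdkn1a, the gene of the cell cycle inhibitor p21, stood at 15.8, 16.4 and 16.8 RPKM in exposed and 32.8, 33.9 and 34.2 RPKM in untreated macrophages, without overlap (log2 change -1.0, SE 0.0435, adjusted p = 7.8e-08). Trp53, which encodes its activator p53, fell by 0.62 (adjusted p = 1.17e-05).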

How the data were processed

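Poly(A) RNA was sequenced from 6 macrophage cultures, 3 exposed and 3 untreated, and 1 table with 1 column per library was used. The deposited values are RPKM, per the file headers, and annotation was on GRCm38 (mm10), per the submitters' processing notes. The aligner, counting program, gene models, use of strand and handling of reads with several matches are not given in the sources used here. Read numbers and depth were recovered by finding the depth and gene length that make all 6 values of a gene whole within 0.001 reads. A length was found for all 18737 genes above 0. It was the GENCODE M21 length for 9371 of them and, for the other 9366, the shortest length that worked. For a gene with few reads such a search is a weak check. At these depths 1 read on a 1 kb gene is worth 0.0386 to 0.0518 RPKM. Intervals cover the spread between libraries, and PCR duplicates cannot be recognised. Genes that reached 1 RPKM in 3 libraries or more were fitted in limma 3.58.1 (R 4.3.3) on log2(RPKM + 1) with an intensity trend and group as the only term; the p-values are two-sided and SE is the moderated standard error. Other steps used Python 3.11.15, numpy 2.4.6 and pandas 2.3.3. The test was also run on simulated reads with the same setting of spread for every gene and changes in only a small part of them. In these data 64.8% of tested genes were called, so that run does not give the error rate here. Group was taken from the sample titles. Alternatives covered pseudocount, filter, scaling, trend, a replicate block and leaving out each library. The 40 genes, their functional groups and the other lists were chosen with earlier results of these data known. Full values are given for the most abundant gene, the largest fall and the smallest change of each functional group and for exceptions, and for other lists for the largest changes in each direction; further genes were named after their values were seen.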

Additional observations from a re-analysis of the deposited data

How the results depend on the processing

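Of the 35 tested genes, 28 kept their direction and side of the threshold under all 14 alternatives that tested them. Pseudocount 0.1 and a fit without intensity trend gave the same 32 lower and 1 higher. With upper-quartile scaling 26 were lower, as with median-of-ratios scaling. Over all tested genes, 2832 were lower and 3234 higher with median-of-ratios scaling and 2814 and 3280 with upper-quartile scaling, against 4679 and 1915 without scaling. A filter at a mean of 5 RPKM left 2961 genes lower and only 2 of the 40 testable, 1 lower (Smc4) and 1 higher (Incenp). A filter at a mean of 1 RPKM, added after the data were seen, tested 33 of the 40, with 30 lower and 1 higher. Leaving out 1 library at a time gave 29 to 31 lower and 1 higher among the 40 genes, and 4045 to 4712 lower and 1630 to 2048 higher over all genes. The sign of Ccnb2 turned in 3 of these, with a range of -0.070 to 0.082. No pairing by replicate number was seen. The deviations of same-numbered libraries correlated at 0.20, -0.03 and -0.16, and those of differently numbered libraries at -0.32 to 0.33. Pairing cannot be settled with 3 libraries per group. With the number as a replicate block 32 of the 40 were lower and 1 higher, and 4627 genes were lower and 1904 higher over all. Genes near 1 RPKM rest on few reads (13 to 1425 per library for the 40), which limits the smaller changes.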
